A study of Mus musculus with 3 samples.

Results

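The comparison described here sets 1 array of LNC cells given an interleukin-10 (IL-10) antisense oligonucleotide against 1 array of LNC cells given a scrambled oligonucleotide. These are 2 of the 3 arrays of the series, and the third, of untreated cells, is given beside them. Members of the comparison were all 12588 probe sets that are not controls, of 12654 on the array. LNC is a line of malignant B-1 cells, established from the lymph node of a mouse of the strain NZB (New Zealand Black) aged 1 year. Both oligonucleotides were used at 20 µM, the scrambled one to control for effects of an oligonucleotide that do not depend on its sequence, and RNA was taken at 24 h. All groups are the same cell line, and they differ in the oligonucleotide alone as far as the labels say. LNC is 1 line of 1 strain, and the sources used here do not say whether an array held RNA of 1 culture or of several. Each group has 1 array, so no difference has a replicate behind it, no test was made, and the values describe these arrays.

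IL-10 is a cytokine that signals through a receptor of chains encoded by Il10ra and Il10rb, the kinases JAK1 and TYK2 and the transcription factor STAT3. In macrophages it is known for restraining inflammatory cytokines and antigen presentation, and B-1 cells, a self-renewing B cell population of the body cavities, are a known source of it. Malignant B-1 cells of NZB mice make IL-10 and use it for their own growth. An antisense oligonucleotide pairs with its target RNA and can lead to its cleavage or block its translation, so the RNA level does not by itself show how much protein was made.

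Il10 itself, the targeted gene, had an intensity of 13946 (array labelled antisense), 5616 (scrambled) and 5164 (untreated). Both controls were close to each other, and the array labelled antisense was 2.48-fold above the scrambled one. A loss of Il10 RNA would have given the reverse order, so the array is called the array labelled antisense throughout. Il10rb, a receptor chain, read 4723, 4502 and 2714 on the arrays labelled antisense, scrambled and untreated, and triplets of intensities below keep this order.

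The arrays had the same trimmed mean of 1500 in the deposited values, and between 42.0% and 42.6% of probe sets lay above the noise floor of 595.9 on each. The 3′ to 5′ ratio of the 18S ribosomal RNA control, a sign of RNA quality, was 8.13, 4.48 and 1.72, so the compared arrays differed in it; its part in the results was not tested. Its 5′ value on the array labelled antisense was 640, close to the floor. The messenger RNA controls had similar 3′ and 5′ values. Gapdh read 137864 (3′) and 148069 (5′) on the array labelled antisense, and 195813 and 196432 on the scrambled one. Beta-actin read 152764 and 159743, then 209845 and 211567. All 9 bacterial spike-in controls differed by -0.74 to -0.39 on the log2 scale, antisense minus scrambled. Of 13 B cell markers, 8 lay above the floor on both arrays, while Cd22 and Cd5 were at or below 0 on both; their summed intensity was 220304, 284792 and 253676, and their values are given with the B cell genes below. Of 25 T and NK cell markers, 2 lay above the floor on both, and Cd3e and Cd8a were at or below 0. The macrophage markers Adgre1, Itgam and Lyz2 were also at or below 0 on both arrays, with 5 of 17 markers of macrophages and dendritic cells above the floor. The summed intensity of the T and NK cell markers was 5693, 6789.9 and 6134, and that of the macrophage and dendritic cell markers 14935, 15000.1 and 14336. Of 15 erythroid and megakaryocyte markers, 4 and 3 lay above the floor on the arrays labelled antisense and scrambled, Gata1 was at or below 0, and the summed intensity was 11481, 17310.1 and 11073, with Hbb-bh1 at 5017, 11086 and 5316; the part of these sums in the results was not tested.

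A probe set was kept when the mean of its 2 scaled values lay above the floor, which 5301 did, and 4750 of them were above the floor on both arrays. Each of 4062 genes was represented by its brightest kept probe set. Differences are log2 intensities of the array labelled antisense minus the scrambled array, with values under the floor raised to it. The yardstick of error is the 95th percentile of the difference between the scrambled and untreated arrays among the 300 probe sets nearest in level. It came to 2.04-fold at intensities of 1024 to 2048, 1.39-fold at 4096 to 8192 and about 1.26-fold above 16384. It uses the scrambled array too, and holds any effect of the scrambled oligonucleotide.

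Of the 4062 genes, 2062 were higher and 2000 lower on the array labelled antisense, with a median difference of 0.006. Past the yardstick were 5.96% of genes in the higher and 5.74% in the lower direction, 11.7% in all. At least 2-fold apart were 3.57% and 3.13%, 6.70% in all. Over the 5301 probe sets, 6.13% were higher and 5.90% lower past the yardstick, and 3.66% and 3.13% were 2-fold or more higher and lower (6.79% in all). Between the scrambled and untreated arrays 3.98% of probe sets lay past the yardstick, which was made from that difference, and 3.15% were 2-fold or more apart. Every difference is taken against each array's own common level. Scaling to the spike-in controls would raise the array labelled antisense by 0.53 against the scrambled one and put 1824 probe sets past the yardstick higher and 56 lower, where the values as reported gave 325 and 313. All 100 gene lists examined would then have a median above 0, the lowest at 0.03. "Lower" below therefore means lower relative to most other transcripts on the same array.

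**Figure D1:**
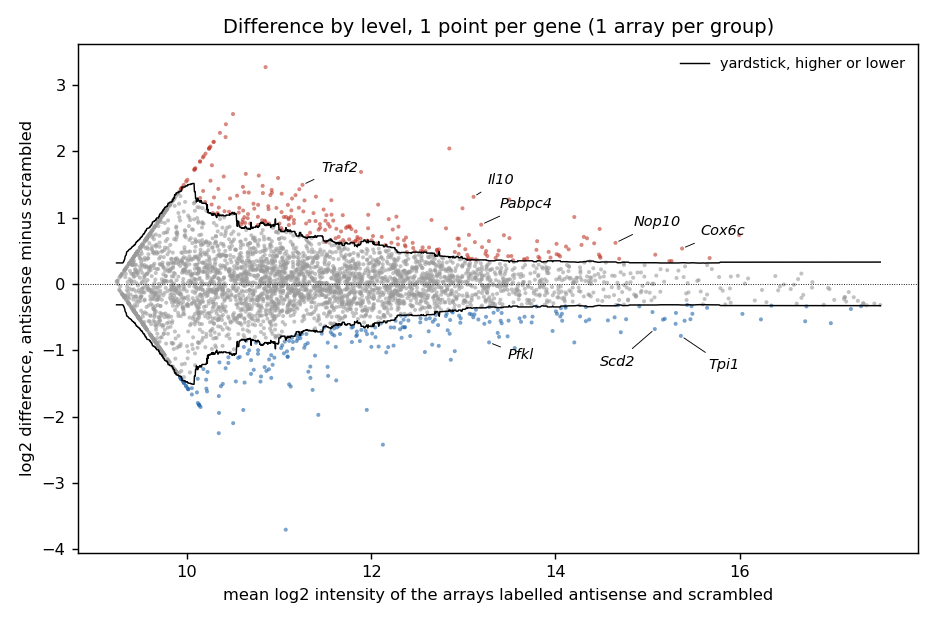
Difference between the array labelled antisense and the scrambled array (log2, vertical axis) against mean log2 intensity, 1 point for each of 4062 genes. Black lines mark the yardstick, and red and blue points lie past it on the higher and lower side (5.96% and 5.74% of genes); the yardstick narrows as the intensity grows.

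Of the 100 gene lists, 37 held members past the yardstick in the lower direction only, 21 in the higher direction only, 35 in both, and 7 held none. The lists named below differ in how one-sided their members were. Beside the shares of 5.96% and 5.74% over all genes, a list of 16 kept members with 1 past the yardstick is near the background.

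**Figure D2:**
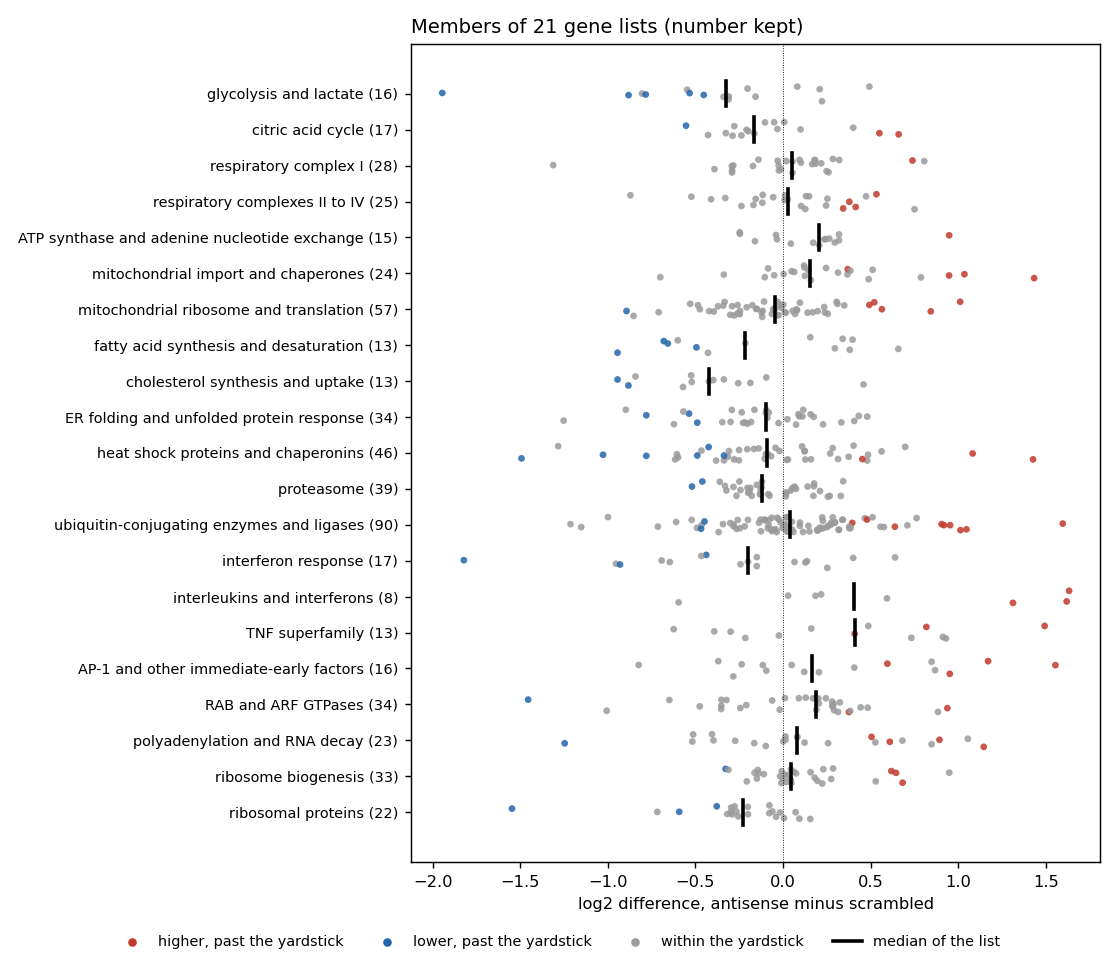
Log2 difference of each kept member of 21 gene lists (1 point per gene, number kept in parentheses), antisense minus scrambled; red and blue points lie past the yardstick and the black bar is the list's median. Glycolysis, lipid synthesis and ribosomal proteins have medians below 0 (-0.33, -0.22 and -0.42, -0.23), and ATP synthase and mitochondrial import have medians above 0 (0.21 and 0.15), all relative to each array's common level. For the array labelled antisense against the untreated one, not drawn, these medians were -0.10, -0.23 and -0.42, 0.02, -0.08 and 0.18, in the same order.

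Glycolytic genes were mostly lower on the array labelled antisense. Of 30 glycolysis and lactate genes on the array 16 were kept, 12 of them lower and 4 higher. Past the yardstick were 5, all lower, and none higher. The median difference was -0.33, was -0.35 after quantile normalization, and turned to 0.21 under spike-in scaling. Against the untreated array, the list median was -0.10 for the array labelled antisense and 0.18 for the scrambled array. Hexokinase Hk1, which traps glucose in the cell, read 71867, 67938 and 68447, a difference of 0.08. At the next committed step, the liver-type phosphofructokinase Pfkl read 7326, 13502 and 10781, a difference of -0.88. The muscle-type phosphofructokinase Pfkm read 664, 2556 and 1875, where the first value is close to the floor, and the platelet-type gene Pfkp differed by 0.22. The 3 phosphofructokinase genes did not share a direction.

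Further down the pathway, triosephosphate isomerase Tpi1 read 32108, 55282 and 57073, which is 1.72-fold lower on the array labelled antisense. Pgk1, whose product makes the first ATP of the pathway, read 23190.5, 33559 and 30264, a difference of -0.53. Ldha, the lactate dehydrogenase subunit that turns pyruvate to lactate, read 57233, 78328 and 72052, a difference of -0.45. For Tpi1, Pgk1 and Ldha the array labelled antisense was below both others. The pyruvate kinase gene Pkm read 52827, 65473 and 56043, a difference of -0.31 within its yardstick of 0.33. Hif1a, the transcription factor subunit known for inducing glycolytic genes, read 3489, 3204 and 3511.

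The promoters of Pgk1 and Ldha are shown because both genes lay past the yardstick and carry the letters ACGTG, the core of known hypoxia-response elements and part of the box CACGTG bound by MYC and USF factors. The windows hold the 250 bases before a RefSeq start in GRCm38.p6, plus strand, at chrX:106186850-106187099 for Pgk1 and chr7:46845554-46845803 for Ldha. Capitals mark ACGTG on either strand.
Pgk1: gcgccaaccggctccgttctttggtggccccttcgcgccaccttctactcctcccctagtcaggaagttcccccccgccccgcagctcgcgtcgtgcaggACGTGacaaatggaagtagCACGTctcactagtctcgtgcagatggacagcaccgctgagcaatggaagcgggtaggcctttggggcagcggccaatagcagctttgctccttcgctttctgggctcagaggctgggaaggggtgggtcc
Ldha: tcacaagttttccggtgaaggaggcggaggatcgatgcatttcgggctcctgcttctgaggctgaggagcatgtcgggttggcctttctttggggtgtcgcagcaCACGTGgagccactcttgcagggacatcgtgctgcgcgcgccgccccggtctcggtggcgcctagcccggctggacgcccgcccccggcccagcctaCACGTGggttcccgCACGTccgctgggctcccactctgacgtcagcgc
The search used ACGTG on both strands and was made after the values were seen. Pgk1 had 2 matches and Ldha 5, overlapping in the copies of CACGTG, while Tpi1 and Pfkl had 0 in windows of the same length. RefSeq lists 2 starts for Ldha, and the window of the other one, not shown, had no match. Of 32817 such windows of the reference, 16.6% held the letters. The 911 kept genes with the letters had 471 members higher and 440 lower, with 54 and 55 past the yardstick and a median of 0.02, beside 0.011 for the 3295 kept genes with a window.

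Genes of mitochondrial protein import were mostly higher. Of 24 kept genes of the import machinery and its chaperones, 19 were higher and 5 lower, with 4 past the yardstick higher and none lower. Their median was 0.15, 0.17 after quantile normalization and 0.69 under spike-in scaling. Tomm7, a small subunit of the outer membrane gate, read 3741, 1939.5 and 1947, so both controls were alike and the array labelled antisense was 1.93-fold above the scrambled one. Tomm70a, the receptor for carrier precursors, read 4734, 2309.6 and 3647, from a probe set that can bind related sequences; its 2 other probe sets differed by 0.23 and 0.15, both within the yardstick. Timm17a, part of the inner membrane channel, read 10226, 7918 and 9973, where the untreated value was close to that of the array labelled antisense and the difference of 0.37 sat at its yardstick of 0.36. The protease gene Lonp1 was at least 2.70-fold higher than the floor value taken for the scrambled array, but it was within the yardstick with a floor of 3 robust standard deviations (0.85), with all probe sets and with a yardstick over 100 probe sets. The matrix chaperonins Hspd1 and Hspe1 differed by 0.12 and 0.31, both within the yardstick.

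In the respiratory chain, 4 of 25 kept genes of complexes II to IV were past the yardstick, all higher, while the median was 0.03 and 10 of the 25 were lower. Uqcrq, a small subunit of complex III, read 43514, 34309 and 34824. The cytochrome c oxidase subunits followed: Cox6c read 51126, 35336 and 40231, from a probe set that can bind related sequences. Cox7a2 read 26463, 19853 and 21649.5, and Cox7b read 30185, 23221 and 27861. For these 4 genes the array labelled antisense was above both others, and all are small nuclear-encoded subunits. The core subunits Uqcrc1 and Uqcrc2 of complex III differed by -0.06 and -0.24, and Cox5b, another small subunit, by -0.17, all within the yardstick.

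Of 28 kept complex I genes, Ndufb3 alone was past the yardstick, at 11037, 6614 and 12478, and the untreated array was the highest. Among 15 ATP synthase and adenine nucleotide exchange genes, 10 were higher and the median was 0.21. The median of this list against the untreated array was -0.08 for the array labelled antisense and -0.12 for the scrambled array. Atp5pb was the gene past the yardstick, at 3572, 1852 and 4352, again with the untreated array highest. For Ndufb3 and Atp5pb it was the scrambled array that stood apart from the other arrays. Mitochondrial ribosomal and translation genes numbered 57 with a median of -0.05, of which 5 were past the yardstick higher and 1 lower. Mrpl9 read 2478, 1229.7 and 1524, Mrpl11 read 4538, 2529.8 and 3558, and Mrps17 read 8169.9, 5694 and 6179. Mrpl58, a peptidyl-tRNA hydrolase of the mitochondrial ribosome, went the other way at 1863, 3461 and 3292.

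The citric acid cycle list of 17 kept genes had 12 lower and 5 higher, with a median of -0.16 that turned to 0.37 under spike-in scaling. Past the yardstick were 2 higher and 1 lower. Pdhb and Dld, of the pyruvate dehydrogenase complex, read 7296, 4984 and 7596, and 4166, 2637 and 4061, with the scrambled array lowest in each. Fumarate hydratase Fh1 read 9503, 13951 and 14479.7, so the array labelled antisense was the one that stood apart. The mitochondrial citrate carrier Slc25a1, which exports citrate for lipid synthesis, read 2786, 4808 and 4172, a difference of -0.79, and its other probe set differed by -0.62.

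Of 13 kept genes of fatty acid synthesis and desaturation, 7 were lower and 6 higher on the array labelled antisense. Past the yardstick were 4, all lower, and the median was -0.22, turning to 0.32 under spike-in scaling. Srebf1, the transcription factor that drives lipid synthesis genes, read 3122, 6009 and 5253. Scd2, a stearoyl-CoA desaturase, read 27345, 43842 and 37670.4, a difference of -0.68. Scd1, its close relative, read 11619, 16367 and 14474, and both of its other probe sets were lower too, by -0.85 and -1.20. Fads1, the delta-5 desaturase of polyunsaturated fatty acids, read 3874, 6113 and 4669. In all 4 the array labelled antisense was lowest and the scrambled array highest. Fatty acid synthase Fasn differed by -0.60, within its yardstick of 0.65, and the elongase and acyl-CoA synthetase genes Elovl1, Elovl5, Acsl4 and Acsl5 differed by 0.66, 0.40, 0.38 and 0.34, all within theirs. In the related cholesterol list 12 of 13 kept genes were lower, with a median of -0.42 that became 0.11 under spike-in scaling. The farnesyl diphosphate synthase gene Fdps, past the yardstick as was Srebf1, which is on both lists, read 13909, 25649 and 21339.6.

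**Figure D3:**
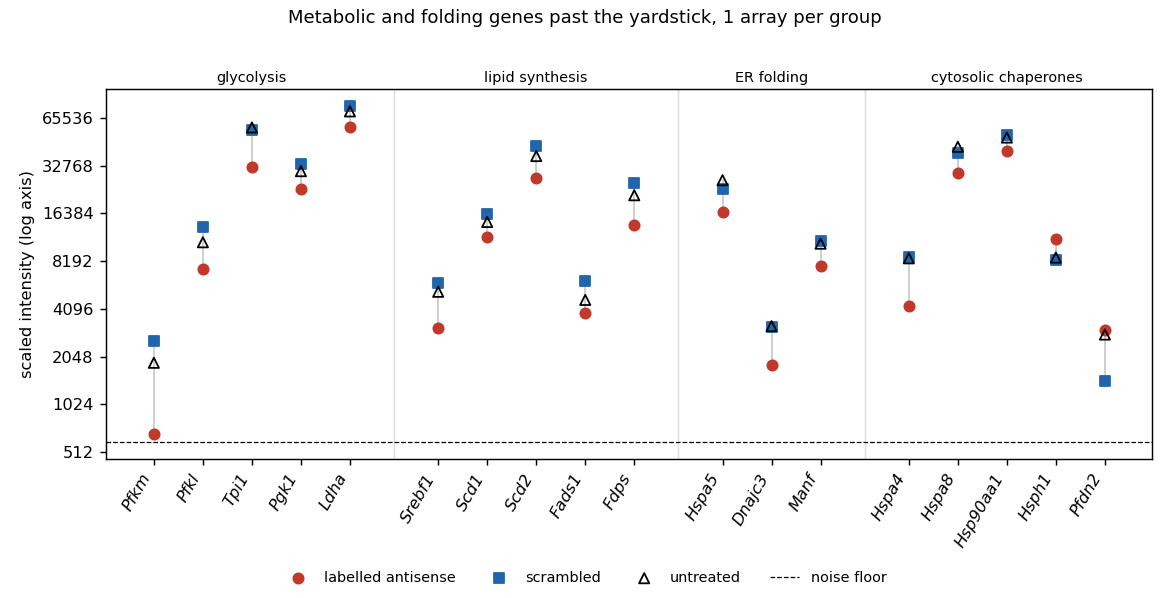
Scaled intensity (log axis) of metabolic and folding genes past the yardstick on the arrays labelled antisense (red circles), scrambled (blue squares) and untreated (open triangles), 1 array per group; the dashed line is the noise floor of 595.9. Glycolytic and lipid genes have the red circle lowest (Tpi1 32108 against 55282 and 57073), while Hsph1 and Pfdn2 have it highest.

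Protein folding in the endoplasmic reticulum (ER) relies on chaperones that the unfolded protein response induces through the factors ATF6 and XBP1. Of 34 kept genes, 21 were lower and 13 higher, with 3 past the yardstick, all lower, and a median of -0.10 that became 0.44 under spike-in scaling. Hspa5, the central HSP70 chaperone of the ER known as BiP, read 16643.5, 23369.8 and 26549.7. Its co-chaperone Dnajc3 read 1821, 3128 and 3191, from a probe set that can bind related sequences; its other probe sets differed by -0.51 and -0.12. Manf, a secreted factor that binds BiP, read 7617, 11049.5 and 10565. In each of these the array labelled antisense lay below both controls. The disulfide isomerase gene Pdia4 read 2503, 3855 and 4438, a difference of -0.62 that did not pass its yardstick. Regulators of the response, Xbp1, Atf4 and Ddit3, differed by 0.02, -0.08 and 0.09, within the yardstick.

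The promoters of Hspa5 and Dnajc3 are shown because each holds a copy of the ER stress response element, searched as CCAAT, any 9 bases and CCACG on both strands after the values were seen. The 250-base windows before the RefSeq start in GRCm38.p6, plus strand, lie at chr2:34771840-34772089 and chr14:118937682-118937931. Capitals mark the match.
Hspa5: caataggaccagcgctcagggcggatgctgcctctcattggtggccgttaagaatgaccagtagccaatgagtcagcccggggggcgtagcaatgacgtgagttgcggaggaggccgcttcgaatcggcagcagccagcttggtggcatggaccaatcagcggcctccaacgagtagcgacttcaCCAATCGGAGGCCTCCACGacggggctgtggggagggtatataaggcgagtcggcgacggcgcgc
Dnajc3: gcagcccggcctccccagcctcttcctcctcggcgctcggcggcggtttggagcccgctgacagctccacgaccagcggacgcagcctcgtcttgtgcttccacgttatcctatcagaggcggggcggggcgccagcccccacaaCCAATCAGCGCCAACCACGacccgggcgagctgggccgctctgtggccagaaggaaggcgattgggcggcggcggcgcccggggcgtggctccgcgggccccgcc
The motif was in 37 of 32817 windows, or 0.11%. Of its 35 genes, 11 were on the array and 8 were kept, of which 7 were lower and 1 higher. Hspa5 and Dnajc3 were the 2 past the yardstick, Pdia6 differed by -0.35, Canx differed by -0.20, and Ero1b was the higher one at 0.33. Creld2, below the floor on the array labelled antisense, differed by -0.90, within its yardstick of 0.98. Pan2 and Ptgdr2, counted as lower, differed by only -0.06 and -0.03. The median of the 8 kept genes was -0.27, beside 0.011 over the 3295 kept genes with a window, and no test was made of so few.

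Heat shock proteins and chaperonins did not share a side. Of 46 kept genes, 3 were past the yardstick higher and 6 lower, Dnajc3 among them, with a median of -0.09. Hspa8, the constitutive HSP70, read 29367, 39422 and 43111. Hsp90aa1 read 40603, 51282 and 49297, and its difference of -0.34 became -0.25 after quantile normalization, which is within the yardstick. Hspa4, an exchange factor for HSP70, read 4297, 8759 and 8541 in its brightest probe set, while its other probe sets differed by -0.43, 0.00 and 0.16. Hsph1, a close relative of Hspa4, was higher at 11323, 8274 and 8635. Pfdn2, a subunit of the prefoldin complex that hands actin and tubulin to chaperonins, read 3035, 1434 and 2824, and Bag1, a further HSP70 cofactor, read 3909, 1454 and 1275.

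Ubiquitin enzymes numbered 90 kept genes, with 52 higher and 38 lower and a median of 0.04. Past the yardstick were 9 higher and 2 lower. Anapc16, a subunit of the anaphase-promoting complex, read 3533, 1168 and 1989, a 3.02-fold difference. Itch, a ligase known for restraining lymphocyte activation, read 26365, 20051 and 16138. The RING-finger genes Rnf5, Rnf181 and Rnf141 read 6328, 4538 and 4805, then 4535, 2914 and 2951, then 3180.3, 1576 and 1775. For all of these the array labelled antisense was highest. The Rnf5 difference of 0.48 was at the yardstick and within it after quantile normalization. Lower past the yardstick were the ligase gene Trim27, at 5662, 7833 and 6836, and the conjugating enzyme gene Ube2k, at 6188, 8444 and 8211, whose other probe set differed by -0.09.

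Of 39 kept proteasome genes, 2 were past the yardstick, both lower, a count near the share of 5.74% lower over all genes. They were Psmd4, the ubiquitin receptor of the cap, at 10445, 14978 and 12182, and the ATPase subunit Psmc2 at 7425, 10219.7 and 9317. The proteasome list median was -0.12 and became 0.41 under spike-in scaling. Deubiquitinases split, with Usp14 and Otud5 higher and Usp5 and Uchl5 lower. Usp14, which trims chains at the proteasome, read 4795, 2771 and 3626. Uchl5, also bound to the proteasome, read 1785, 3055 and 3152. The brightest Otud5 probe set differed by 0.70, but the others by 0.84 and -0.68.

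Among secreted signals, 7 of 8 kept genes of the interleukin and interferon list were higher, with 3 past the yardstick. Besides Il10, the targeted gene described above, these were Epo and the interferon-alpha gene Ifna5. Epo, which the list also held, encodes erythropoietin, neither an interleukin nor an interferon, and read 3094, 998 and 1225. Ifna5 read 2366, 770.2 and 966. The Ifna5 probe set is of a kind that can bind related sequences, and most of the 34 genes of this list on the array were not kept. In the tumour necrosis factor (TNF) superfamily and its signalling proteins, 8 of 13 kept genes were higher, 3 of them past the yardstick and none lower. The adaptor gene Traf2, which links TNF receptors to NF-kB and JNK, read 4097, 1456 and 2189, a 2.81-fold difference. Tank, a TRAF-binding regulator, read 3662, 2077 and 2862. Ltb, a subunit of lymphotoxin, read 16609, 12511 and 14481. Tnf and Cd70 read 1575, 837 and 886, and 1585, 832 and 749, differences of 0.91 and 0.93 that did not pass the yardstick of 1.22 at their level. The list median was 0.41, and 0.27 after quantile normalization.

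Interferon-response genes were mostly lower than on the scrambled array. Of 17 kept, 11 were lower and 6 higher, with 3 past the yardstick, all lower, and a median of -0.20 that became 0.31 under spike-in scaling. Against the untreated array, the list median was -0.01 for the array labelled antisense and 0.17 for the scrambled array. Isg20, an exonuclease gene induced by interferon, read 3509.7, 6690.2 and 7684. Mx2, an antiviral GTPase gene, was below the floor on the array labelled antisense and read 2107 and 1559.6 on the others, so it was at least 3.54-fold lower. The lysosomal reductase gene Ifi30 read 9389, 12724 and 8852, where the untreated value was the lowest. Nucleic acid sensors and their adaptors, a route by which oligonucleotides can be detected, had 6 of 8 kept genes lower and a median of -0.46, which became 0.03 under spike-in scaling. Irf5, a factor activated downstream of these sensors, read 4338, 6045 and 5587, with a difference of -0.48 just past its yardstick of 0.47 that was within it after quantile normalization. The adaptor gene Myd88 read 1246, 1877 and 1531, within the yardstick, and the scrambled array differed from the untreated one by a list median of 0.08.

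Immediate-early and AP-1 genes, which answer stimulation within minutes, had 4 of 16 kept members past the yardstick, all higher, and a median of 0.16. Egr1 read 4036, 2087 and 1396, Ier3 read 2831, 1258 and 999, and Zfp36l1, which destabilises RNAs with AU-rich elements, read 6159.6, 4076 and 4554. In these 3 genes the array labelled antisense was above both controls. Mafk read 2095, 713 and 2162, so there the scrambled array stood apart. Within the NF-kB list of 12 kept genes, 2 were past the yardstick, both of them inhibitors: Nfkbia, at 26784, 13318 and 13171, whose other probe set differed by 0.73, and Nfkbie at 1971, 799 and 1026.

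**Figure D4:**
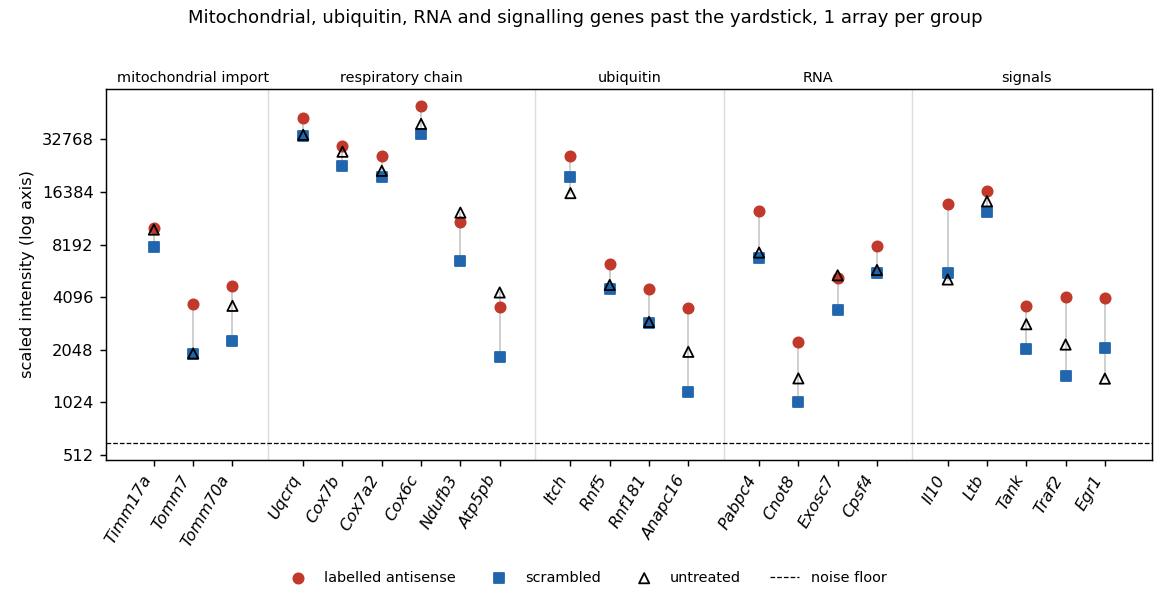
Scaled intensity (log axis) of mitochondrial, ubiquitin, RNA-processing and signalling genes past the yardstick on the arrays labelled antisense (red circles), scrambled (blue squares) and untreated (open triangles), 1 array per group, with the noise floor dashed. Every red circle lies above its blue square, and in Ndufb3, Atp5pb and Exosc7 the open triangle is highest (11037 against 12478 for Ndufb3).

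Inside the cell, kinase and calcium signalling genes were mixed. Prkca, the alpha isoform of protein kinase C, read 2295, 665 and 796, and Nfatc1, a calcium-dependent factor of activated lymphocytes, read 3124, 1205 and 1151. They were 3.45-fold and 2.59-fold higher, with the controls near each other. Lower were Nfatc3, at 4926, 9412 and 7468 in its brightest probe set with the other at -0.03, and Rasgrp2, an activator of RAP GTPases. Rasgrp2 read 679, 2088 and 1706. Mapkapk2, a kinase downstream of p38 that stabilises cytokine RNAs, was the gene past the yardstick among 28 kept of the MAP kinase cascade, at 8029.8, 5622 and 4867. Among serine/threonine phosphatases, the catalytic subunit gene Ppp1cc read 11349.7, 8482 and 9294 and the regulatory subunit gene Ppp2r5a read 9252, 6762 and 7552. The tyrosine phosphatase gene Ptpn6, a brake on the B cell receptor, read 15617, 20043 and 20854. Csk, the kinase that restrains SRC kinases, read 5490.1, 7969.8 and 6339.8.

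Actin-binding genes were past the yardstick on both sides. Vasp, which elongates filaments, read 3203, 5589 and 4719, and Cap1 read 1114, 2469.9 and 2366. The bundling protein gene Lcp1 was higher, at 4261, 1712 and 2959.6. The focal adhesion gene Ilk was lower, at 2950.4, 5698 and 3352. Pxn, which encodes the adhesion scaffold paxillin, read 626, 1945 and 1695, with the first value near the floor.

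RAB and ARF GTPases, which direct vesicles, had 22 of 34 kept genes higher and a median of 0.19. Past the yardstick were 2 higher and 1 lower, no more than the shares of 5.96% and 5.74% over all genes. The list median against the untreated array was -0.02 for the array labelled antisense and -0.03 for the scrambled array. Rab12 read 2556, 1334 and 1308, with a difference of 0.94 that was 0.90 and within the yardstick after quantile normalization. The brightest Rab14 probe set differed by 0.38, and its others by 0.54 and -0.89. Arf5, a GTPase of the Golgi, was lower at 1901, 5212 and 4572, a 2.74-fold difference. Of 43 kept genes of coat proteins and adaptors, 3 were past the yardstick lower and 1 higher, counts near the shares of 5.74% and 5.96% over all genes. The lower ones were Necap2, at 1387, 5454 and 3733, the AP-1 subunit gene Ap1b1, at 1845, 3904 and 2744, and Epn1, at 3775, 5954 and 3335. For Epn1 the untreated value was lowest.

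Genes that process and degrade RNA differed in both directions. Of 23 kept polyadenylation and RNA decay genes, 4 were past the yardstick higher and 1 lower. Pabpc4, a cytoplasmic poly(A)-binding protein gene known from activated T cells, read 12769, 6877 and 7369. Cnot8, a deadenylase subunit gene, read 2257, 1020.3 and 1401, and the cleavage factor gene Cpsf4 read 8007, 5642 and 5856. The exosome subunit gene Exosc7 read 5266, 3452 and 5458, with the scrambled array apart, and its difference of 0.61 was within the yardstick after quantile normalization. Auh, an enzyme that also binds AU-rich RNA, read 1681, 3989 and 2713, while its other probe set differed by 0.10. The helicase gene Ddx17 read 12082, 5487 and 6099.8, and Ddx56 read 4718, 8904 and 4265.

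Ribosome biogenesis and ribosomal protein genes had opposite counts. Of 33 kept biogenesis genes, 21 were higher and 3 were past the yardstick higher, among them Nop10, a small component of the particle that modifies ribosomal RNA, at 31907, 20786 and 19422. Nop53 read 12419, 7943 and 8737, and Polr1d, a subunit shared by RNA polymerases I and III, read 9931, 6188 and 7368. Nucleolin Ncl was the one past the yardstick lower, at 74311, 93309 and 90275, a difference of -0.33 at its yardstick that was -0.25 and within it after quantile normalization. Of 22 kept ribosomal protein genes 18 were lower, with a median of -0.23, but these are among the brightest probe sets. Probe sets above 65536 had a median of -0.21 whatever their function, and the list median was -0.01 after quantile normalization and 0.33 under spike-in scaling. Rplp0 read 132847, 172709 and 140746, and its difference of -0.38 became -0.15, which ends its place past the yardstick. Of 55 kept splicing factor genes, 34 were higher and 21 lower, with a median of 0.11. Past the yardstick were 3 on each side, near the shares of 5.96% and 5.74% over all genes. Among them, Sf3b5 read 18411, 13175 and 14943 and Snrpa1 read 4057, 5964 and 5808.

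Genes of DNA replication were mostly lower. Of 40 kept DNA replication genes, 26 were lower and 14 higher. Past the yardstick were 4, all lower, with a median of -0.10 that became 0.44 under spike-in scaling. At least 2-fold apart were 2 higher and 1 lower. Mcm5 and Mcm7, subunits of the replicative helicase, read 32868, 49891 and 46247, and 14178, 19385 and 19055. Dnmt1, the maintenance DNA methyltransferase, read 5465, 8406 and 7275. Chromatin genes of other lists had similar numbers higher and lower. DNA and histone methylation genes had 18 higher and 16 lower (median 0.03), and remodellers and histone acetylation enzymes 17 and 15 (median 0.02). Histones and HMG proteins had 10 and 11 (median -0.11). Past the yardstick these lists had 3 of 34, 1 of 32 and 3 of 21 kept members lower and none higher. Over all genes 5.74% were lower and 5.96% higher past the yardstick. Among their members lower past the yardstick, Ezh2, the histone methyltransferase of polycomb, read 8899, 13436.5 and 13598.5. Smarcb1, a core subunit of the SWI/SNF remodeller, read 5716, 9282 and 7549.5. Hmgb2, a DNA-bending chromatin protein gene, read 20816, 34517 and 35595. For Ezh2 and Hmgb2 the controls nearly coincided. B lineage factors were on both sides, with Irf4 at 24443, 16268 and 15737, Myb at 1938, 873 and 1179, Spib at 8629, 16871 and 15336 with its other probe set at -0.70, and Id3 at 7345, 10043.4 and 10272.

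B cells present antigen on MHC molecules and sense it through a receptor that pairs immunoglobulin with the signalling chains CD79A and CD79B. Of 8 kept B cell markers, 5 were lower and 3 higher, with 4 past the yardstick, all lower. Their median of -0.27 was -0.15 after quantile normalization, with 3 past the yardstick, and 0.27 under spike-in scaling. Ms4a1, which encodes CD20, read 31106, 44803 and 44237, and its other probe set differed by -0.46. Cd79a read 21473, 30469 and 27790.1. For both, the array labelled antisense was lowest; the part of these markers in the other results was not tested. In the MHC class II list 3 of 10 kept genes were past the yardstick, all lower, with a median of -0.46 that became 0.07 under spike-in scaling. The invariant chain gene Cd74 read 63917, 92660.4 and 81644, and H2-Aa read 16961, 25041 and 23224. In the MHC class I list, 4 of 20 were past the yardstick, all lower, with a median of -0.24 that became 0.30. H2-K1 read 37636, 54446 and 43834, and H2-D1 read 39287, 53716 and 43541, from probe sets that can bind related sequences, so these near-identical genes may share signal.

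Genes of mitosis and the spindle checkpoint had 23 of 33 kept members lower and 4 past the yardstick, all lower, with a median of -0.16 that became 0.38 under spike-in scaling. Cdc20, whose product starts anaphase, read 8215, 13711 and 13382, and the mitotic kinase gene Plk1 read 5698, 9589 and 9815, with its other probe set at -0.70. For both, the controls were close together above the array labelled antisense. Of 11 kept p53-linked genes, 7 were higher and 2 past the yardstick, both higher, with a median of 0.27. Cdkn1a, which encodes the CDK inhibitor p21, read 3050.1, 1205 and 961, and its other probe set differed by 2.59. Ccng1, a cyclin G gene, read 2234, 1113 and 754.

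Of the 7 lists with no member past the yardstick, the PI3K, AKT and mTOR list had 11 of 21 kept genes higher and a median of 0.09. Its brightest members Gsk3a and Eif4ebp2 differed by 0.16 and -0.16, the latter with another probe set at 0.81. Chemokines and their receptors had 8 kept genes and a median of 0.28. The chemokine gene Ccl22 read 55460.3, 58039 and 46651, and the receptor gene Ccr7 read 1675, 753 and 475, a difference of 1.15 within the yardstick of 1.25 at its level. Growth factors and receptor tyrosine kinases had 16 kept genes and a median of -0.19, which became 0.34 under spike-in scaling, with Flt3 at 7906, 7301 and 7404 and its other probe set at -0.67. Ion channels and the cytochrome P450 and dehydrogenase list had 24 and 20 kept genes. The other lists with none were the macrophage and the stromal markers.

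Genes with more than 1 probe set offer a check within the same arrays. For 459 genes a brighter and a second kept probe set could be compared, and Pearson's correlation of their differences was 0.31 across genes, against 0.10 for the difference between scrambled and untreated arrays. Genes are not independent replicates, and both probe sets share the hybridisation. Where the brighter probe set was higher past the yardstick, in 39 genes, the second was higher in 31, with a median of 0.46 beside 0.77. Where it was lower, in 40 genes, the second was lower in 27, with a median of -0.14 beside -0.70. Over all 459 genes the second was higher in 51.6%. The second probe set had the smaller median on both sides. Because these genes were chosen by the difference of the brighter probe set, that choice alone tends to give this, so nothing is concluded from it.

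**Figure D5:**
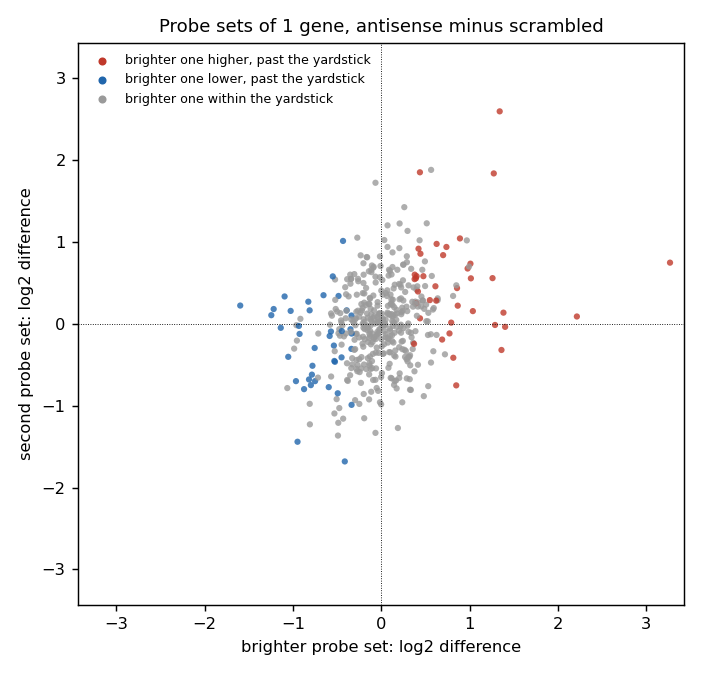
Log2 difference (antisense minus scrambled) of the brighter probe set of a gene (horizontal axis) and of its second probe set (vertical axis), for 459 genes; red and blue mark the brighter probe set past the yardstick on the higher and lower side. Of the 39 red points 31 lie above 0 on the vertical axis, and of the 40 blue points 27 lie below it.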

How the data were processed

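Per the labels, RNA of LNC cells was measured on 3 Affymetrix arrays, 1 per group. Per the labels and the values, the authors deposited linear intensity, 1 number per probe set and array, in 1 table, with 24.8% to 27.9% of values on an array at or below 0 and a trimmed mean of 1500 on each; the sources used here do not name the software. With Python 3.11.15, numpy 2.4.6 and pandas 2.3.3, each array was scaled to a common mean without the lowest and highest 2%. The floor is 2 robust standard deviations of the values below 0, and probe sets not kept numbered 7287. The self-made counting was tested on simulated data. Symbols came from the platform annotation: 10276 probe sets had 1 symbol, 363 several and 1949 were not listed, and 10257 of the first matched RefSeq (GRCm38.p6). Probe sets with several symbols name no gene here. Probe sets with a suffix can bind related transcripts.

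The comparison, its 100 gene lists in 17 sections and the yardstick were chosen with earlier results of these data known. From these lists 20 genes that a symbol pattern took in by name alone, such as a matrix protein among the heat shock proteins, were taken off afterwards. The lists described were picked from the 100 after their values were seen. Named from them were some or all of up to 4 members past the yardstick and above the floor on both arrays with the largest difference, or the 2 brightest where there was none, and Il10. The other genes named were chosen after their values were seen or for what they are: Acsl4, Acsl5, Atf4, Canx, Cd70, Cox5b, Cpsf4, Creld2, Ddit3, Elovl1, Elovl5, Ero1b, Fasn, Hif1a, Hk1, Hsp90aa1, Hspa8, Hspd1, Hspe1, Hsph1, Il10rb, Itch, Ldha, Lonp1, Mrps17, Mx2, Myd88, Pan2, Pdia4, Pdia6, Pfkp, Pkm, Ptgdr2, Rnf181, Rnf5, Tnf, Trim27, Ube2k, Uqcrc1, Uqcrc2 and Xbp1. Alternatives were other scalings (quantile, median, spike-in), floors, filters, probe set choices and a yardstick over 100 probe sets. The number of arrays, 1 a side, limits precision.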

Additional observations from a re-analysis of the deposited data

Results flagged for a closer look

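Flagged were 3 signals from the array's control probe sets, which the comparison did not use, that lay above both control arrays. The control probe set for murine Il10, AFFX-MurIL10, read 6340.9 (array labelled antisense), 3967.1 (scrambled) and 3392.6 (untreated), a log2 difference of 0.68 from scrambled beside a yardstick of 0.47, so it had the direction of the Il10 probe set of the report. The repeat-element probe set AFFX-MUR_b2 read 27470.7, 14512.8 and 14539.3, a difference of 0.92, and AFFX-MURINE_b1 read 32805.1, 24921.8 and 19164.5, a difference of 0.40. Another of these repeat controls, AFFX-MURINE_B2, went the other way at 129547, 207884 and 159724. A control probe set not flagged, AFFX-BioB-5_st, was not among the spike-in controls used for scaling. It also lay above both control arrays, at 2296.6, 1241.1 and 1290.6, a difference of 0.89 beside a yardstick of 0.85.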

How the results depend on the processing

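Under spike-in scaling 809 probe sets were at least 2-fold higher and 57 lower, and 1824 were past the yardstick higher and 56 lower, beside 325 and 313 as reported. A floor of 1 robust standard deviation gave 419 higher and 444 lower at 2-fold, a floor of 3 gave 116 and 92, and keeping only probe sets above the floor on both arrays gave 115 and 95; the last drops probe sets by its construction. All other alternatives stayed within 1.5 times of the reported counts. Among named genes lower past the yardstick, those that turned higher under spike-in scaling were Cd79a (0.03), H2-D1 (0.08), H2-K1 (0.00), Ms4a1 (0.01), Hsp90aa1 (0.20), Hspa5 (0.04), Hspa8 (0.11), Id3 (0.08), Ifi30 (0.10), Irf5 (0.06), Ldha (0.08), Mcm7 (0.08), Ncl (0.21), Pgk1 (0.00), Psmc2 (0.07), Psmd4 (0.01), Ptpn6 (0.17), Rplp0 (0.16), Scd1 (0.04), Trim27 (0.07) and Ube2k (0.09). Of 121 named genes past the yardstick, 54 came within it under spike-in scaling, 7 after quantile normalization, 6 without suffixed probe sets (among them Dnajc3 at -0.12 and Tomm70a at 0.15), 7 as the mean over probe sets, and 4 with a yardstick over 100 probe sets (Exosc7, Lonp1, Timm17a and Uchl5). The share of higher members moved beyond its 95% binomial interval in 87 of 100 lists under spike-in scaling and in 26 with all probe sets. This interval treats the members of a list as independent, which genes measured on the same arrays are not. It served only as a margin for calling a share moved and measures no spread between arrays. The cause of these moves was not tested. No paired analysis was possible because each group has 1 array, and for the same reason none could be left out. Signal over background limits low values: the median yardstick is 1.92-fold at 512 to 1024 and 2.04-fold at 1024 to 2048.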
